A study of Bos taurus with 111 samples.

Results

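CKB encodes the brain-type subunit of creatine kinase. Its level was followed in M. longissimus biopsies from 2 breeds of steers, sorted into L-RFI and H-RFI classes, in 3 dietary phases. It is 1 gene, ENSBTAG00000035998, of 24616 in the count tables, and it was chosen because its levels in these libraries were already known to vary between steers. Its levels, differences and fold changes are therefore a description, with no p-value. RNA-seq counts of 104 libraries were used, 49 of CH (Charolais) and 55 of HF (Holstein-Friesian), from 77 of the 83 steers.

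The steers differed in residual feed intake (RFI), which is the intake of an animal beyond that predicted from its weight and growth. L-RFI steers eat less than predicted and H-RFI steers more, and each class held the extreme animals of its breed and phase. The phases were a first high-concentrate diet (H1, rolled barley with soya bean meal, plus limited grass silage), zero-grazed grass (ZG) and a second high-concentrate diet (H2). Mean age at the start of H1 was 283 d for CH and 306 d for HF steers. Mean body weight at the start of H1, ZG and H2 was 395, 519 and 675 kg in CH and 294, 441 and 611 kg in HF. The phases followed one another in the same cattle, so in contrasts with ZG diet, age and weight cannot be told apart. H1 and H2 used the same concentrate, so H2 minus H1 compares ages and weights on the same diet. The groups of breed, phase and RFI class held 7 to 11 libraries, each from a separate steer, and some steers were sampled again in a later phase.

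Creatine kinases move a phosphate group between ATP and creatine, which lets cells hold a reserve of high-energy phosphate and carry it to the places where ATP is used. The cytosolic enzyme is a dimer of muscle-type (CKM) and brain-type (CKB) subunits. Mature skeletal muscle fibres use mainly the muscle type, while the brain type is known from brain, smooth muscle, developing muscle and fat cells. The other genes of creatine metabolism and of adenine nucleotide exchange, 17 symbols in all, could not be matched to rows of the tables by name and are not analysed here. The same holds for the listed general markers of muscle fibres, satellite cells, smooth muscle, nerve, endothelium, fibroblasts and red blood cells.

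Reads counted on genes ranged from 2201765 to 52552057 in the libraries used, with a median of 15852126. The muscle label could be checked with the sarcomere genes that have a name in the tables: MYH6 had at least 83.9 CPM, MYL6B at least 15.5 CPM and CSRP3 at least 13.8 CPM in every library used. ALB, the albumin of liver, varied from 14.6 to 8576 CPM among these libraries. Another 6 libraries were left out because they had between 4019 and 592192 gene counts. The H-RFI library of CH steer 571 in ZG was left out as well, and it is described in the closing section.

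CKB was a low-abundance transcript in these biopsies. Its level is given as CPM, reads on CKB per 1000000 reads on genes. Over the 104 libraries it ran from 0.280 to 39.1 CPM with a median of 2.89 CPM, and the middle 50% of libraries lay between 1.54 and 5.07 CPM. The highest library was thus 139.9-fold above the lowest. These levels rested on 4 to 627 reads per library (median 40.5), and 7 libraries had fewer than 10 CKB reads. Reads on the opposite strand made up 0.624% of the stranded reads on CKB. The upper tail was mostly HF: 13 libraries exceeded 10 CPM, of which 12 were HF, and all 6 libraries below 1 CPM were CH. Of the 13 high libraries, 8 were L-RFI and 5 H-RFI.

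In CH steers the medians lay between 1.49 and 3.34 CPM. L-RFI libraries ranged from 0.625 to 4.34 CPM in H1 (median 2.25, n = 8), from 1.22 to 2.97 CPM in ZG (median 1.49, n = 9) and from 0.280 to 4.27 CPM in H2 (median 1.54, n = 7). H-RFI libraries ranged from 0.955 to 6.36 CPM in H1 (median 2.58, n = 10), from 0.983 to 7.39 CPM in ZG (median 2.29, n = 8) and from 1.53 to 16.7 CPM in H2 (median 3.34, n = 7). The H-RFI median was the higher one in all 3 phases, and the 2 classes overlapped in each phase.

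In HF steers the medians lay between 2.25 and 6.82 CPM. L-RFI libraries ranged from 1.22 to 11.9 CPM in H1 (median 3.21, n = 9), from 1.07 to 15.8 CPM in ZG (median 2.25, n = 9) and from 1.55 to 19.9 CPM in H2 (median 6.82, n = 8). H-RFI libraries ranged from 2.20 to 39.1 CPM in H1 (median 3.17, n = 11), from 1.17 to 10.3 CPM in ZG (median 4.12, n = 10) and from 1.17 to 19.6 CPM in H2 (median 4.66, n = 8). The classes overlapped in each phase, and neither class had the higher median in all 3. Pooled over phases and classes the median was 1.90 CPM in CH (n = 49) and 3.63 CPM in HF (n = 55).

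Ordered by median, the groups ran from CH L-RFI in ZG, CH L-RFI in H2 and CH L-RFI in H1 through HF L-RFI in ZG, CH H-RFI in ZG, CH H-RFI in H1, HF H-RFI in H1, HF L-RFI in H1, CH H-RFI in H2, HF H-RFI in ZG and HF H-RFI in H2 to HF L-RFI in H2. Every pair of neighbours in this order overlapped in range. The within-group SD of log2(CPM + 0.5), pooled over the 12 groups, was 1.04.

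**Figure D1:**
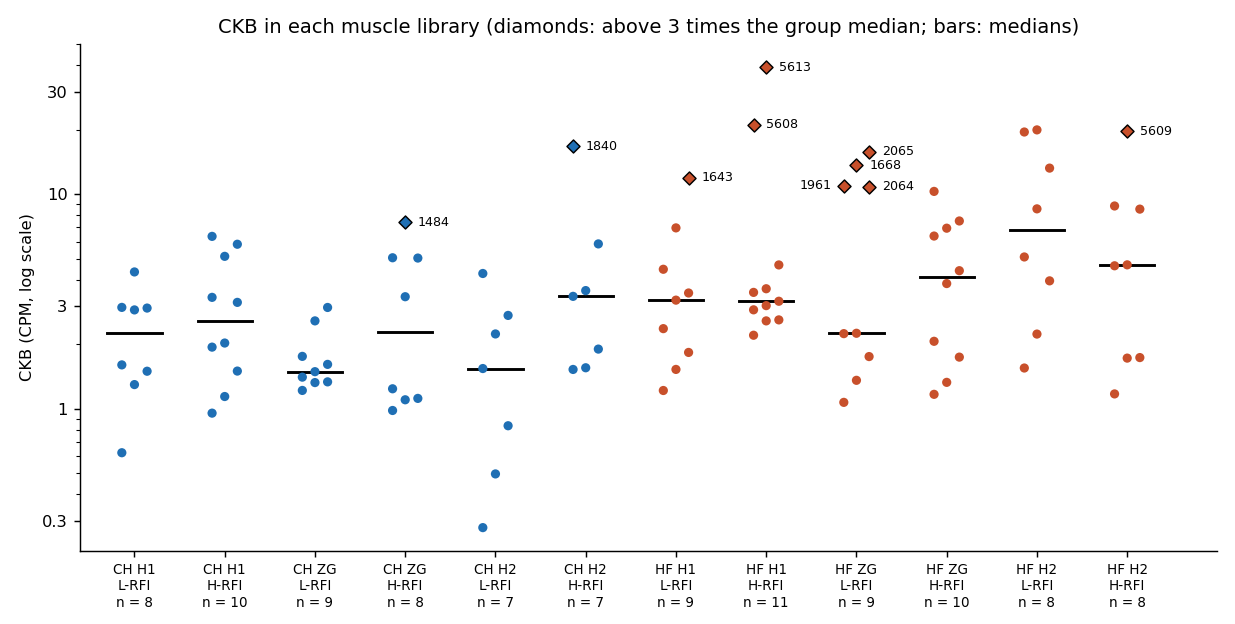
CKB level in CPM (vertical axis, log scale) in each of the 104 libraries, by breed, phase and RFI class (horizontal axis), with CH in blue and HF in orange, black bars at the group medians and numbered diamonds for libraries above 3 times their group's median. The CH groups have medians from 1.49 to 3.34 CPM, the HF groups from 2.25 to 6.82 CPM, and the HF groups hold 8 of the 10 diamonds.

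In 6 of the 12 groups some libraries stood far above the group median. A library was marked where CKB exceeded 3 times the median of its group, which picked 10 libraries, 2 of CH and 8 of HF. By steer, the highest was HF 5613 in H1 (H-RFI), with 39.1 CPM from 627 reads (95% Wilson interval 36.2 to 42.3 CPM) or 12.3 times its group's median. HF 5608 of the same group had 21.1 CPM (18.3 to 24.4 CPM). These 2 libraries stood above the other 9 of the group, which all lay at or below 4.68 CPM. The other marked libraries were HF 5609 in H2 (H-RFI, 19.6 CPM), CH 1840 in H2 (H-RFI, 16.7 CPM), HF 1643 in H1 (L-RFI, 11.9 CPM), CH 1484 in ZG (H-RFI, 7.39 CPM) and 4 L-RFI steers of HF in ZG.

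Those 4 steers, 2065, 1668, 1961 and 2064, had 15.8, 13.6, 10.97 and 10.8 CPM. The other 5 L-RFI steers of HF in ZG had 1.07, 1.36, 1.75, 2.24 and 2.25 CPM. No library of this group lay between 2.25 and 10.8 CPM, so the group median fell in the lower set. Just inside the marking threshold was CH 1484, at 3.24 times its group's median. Just outside was HF 1657 in H2 (L-RFI), at 2.92 times the median of its group, the highest median of the 12, although its 19.9 CPM was the third highest level of all. Wilson intervals cover counting error only.

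The study asked whether muscle expression differs between L-RFI and H-RFI steers within each breed and phase. With edgeR's exact test it called genes in each of the 6 comparisons. It lists CKB among those of CH in H2, lower in L-RFI steers. That comparison rests on 7 libraries of each class here, fewer than the study selected. The exact test called 1 gene in it here, and this was not CKB. By the fitted fold change here, CKB was lower in L-RFI steers in 4 of the 6 comparisons and higher in the other 2. In HF the group medians pointed the other way in H1 (L-RFI 3.21, H-RFI 3.17 CPM) and in ZG (L-RFI 2.25, H-RFI 4.12 CPM). In CH steers the log2 fold change of CKB, L-RFI minus H-RFI, was -0.53 ± 0.42 (SE) in H1, -0.66 ± 0.43 in ZG and -1.71 ± 0.75 in H2. In HF steers it was -0.69 ± 0.59 in H1, 0.94 ± 0.58 in ZG and 0.38 ± 0.69 in H2. The largest of these differences, that in CH in H2, was -0.60 ± 0.59 without steer 1840. That steer had the highest CKB of its H-RFI group, so a move in this direction follows from the choice. Without L-RFI steer 307 the difference was -2.19.

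Other single steers also moved these values. The difference was -0.29 in CH in H1 without steer 447 and -0.26 in CH in ZG without steer 1484. Steers 447 and 1484, and 5613 of HF in H1, had the highest CKB of their H-RFI groups. Moves in this direction therefore follow from leaving them out. With another steer left out the differences went as low as -0.67 in CH in H1, -0.87 in CH in ZG and -0.95 in HF in H1. In HF in H1 the difference was -0.05 without steer 5613 and -0.38 without steer 5608. Without the 3 marked libraries of that comparison it was 0.40 ± 0.38, so its direction turned. Those 3 were picked by their CKB level and 2 of them were H-RFI, so a move in this direction follows in part from the choice. In HF in H2 the difference was 0.87 without steer 5609. It lay between 0.16 and 0.24 without 1657, 5588, 2095, 5617, 1639 or 2297. In HF in ZG it stayed between 0.64 and 1.16 whichever steer was left out. Without its 4 marked steers together, which were all L-RFI and were picked by their CKB level, the difference there was -1.16 ± 0.52. The edgeR quasi-likelihood test with Benjamini-Hochberg adjustment called 0 genes of all those tested in each of the 6 comparisons (0% called), and between 72 and 1228 genes had an unadjusted p under 0.05. DESeq2 called at most 2 genes and edgeR's exact test at most 2 in any comparison.

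Between breeds, CKB was higher in HF in every phase. The log2 difference, HF minus CH and averaged over the RFI classes, was 0.62 ± 0.44 in H1, 0.75 ± 0.45 in ZG and 1.49 ± 0.49 in H2 with limma voom and the steer as a block. With edgeR and no block it was 1.04 in H1, 1.06 in ZG and 1.53 in H2. The HF steers were lighter at the start of each phase and older at the start of H1, so breed, age and weight cannot be told apart. Without the marked libraries the limma differences were 0.24 ± 0.38 in H1, 0.25 ± 0.42 in ZG and 1.5 ± 0.43 in H2. Those libraries were picked by their CKB level and 8 of the 10 were HF. The smaller differences in H1 and ZG therefore follow in part from that choice.

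Between phases, CKB in CH steers differed by less than its SE in each contrast: ZG minus H1 was 0.14 ± 0.47, H2 minus ZG was -0.08 ± 0.51 and H2 minus H1 was 0.06 ± 0.50 on the log2 scale. In HF steers the same differences were 0.27 ± 0.41, 0.66 ± 0.41 and 0.93 ± 0.41, and the last of these compares phases on the same diet. With edgeR and no block in place of limma, the CH differences were 0.15 ± 0.45, 0.31 ± 0.49 and 0.46 ± 0.48. H2 minus ZG in CH thus had the opposite sign. The HF differences were then 0.17 ± 0.41, 0.78 ± 0.43 and 0.95 ± 0.43. Whether the phase differences of the breeds differ from each other was not tested.

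Among the 118 genes compared that have a name, the 3 most like CKB across libraries were transcripts of fat cells and of fat synthesis. Likeness was measured by Spearman's rho of log2(CPM + 0.5), scaled by TMM (edgeR's trimmed mean of M-values) and taken as the deviation from the group mean, over 104 libraries and 10290 other genes. It is a description, and the points share steers, and within a library depth and composition. Of the 10 genes most like CKB, 3 have a name in the sources used here. They were FASN (ENSBTAG00000015980, rho 0.87), the enzyme that builds fatty acids, CIDEC (ENSBTAG00000007969, rho 0.83), a protein of the lipid droplet, and TRARG1 (ENSBTAG00000019379, rho 0.79), which is linked to glucose transporter traffic in fat cells. The other 7 have an identifier only. The first was ENSBTAG00000003758 (rho 0.87) and the third ENSBTAG00000019512 (rho 0.86).

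At the other end, rho was lowest, -0.71, for ENSBTAG00000010919 and ENSBTAG00000000152. The names come from a gene list that the study chose on these same samples, so they are not an independent pick of genes. That list holds CKB as well, and what the unnamed genes encode is not known here. The scaling matters here. With TMM, 1999 genes had rho above 0.5 and 2516 below -0.5, while with plain CPM, a scaling added after the data were seen, these numbers were 184 and 2. TMM factors ranged from 0.490 to 1.56 between libraries. The first 10 genes shared 9 members between the 2 scalings, and with plain CPM rho was 0.81 for CIDEC, 0.80 for FASN and 0.76 for TRARG1. None of the 3 lowest genes was shared.

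**Figure D2:**
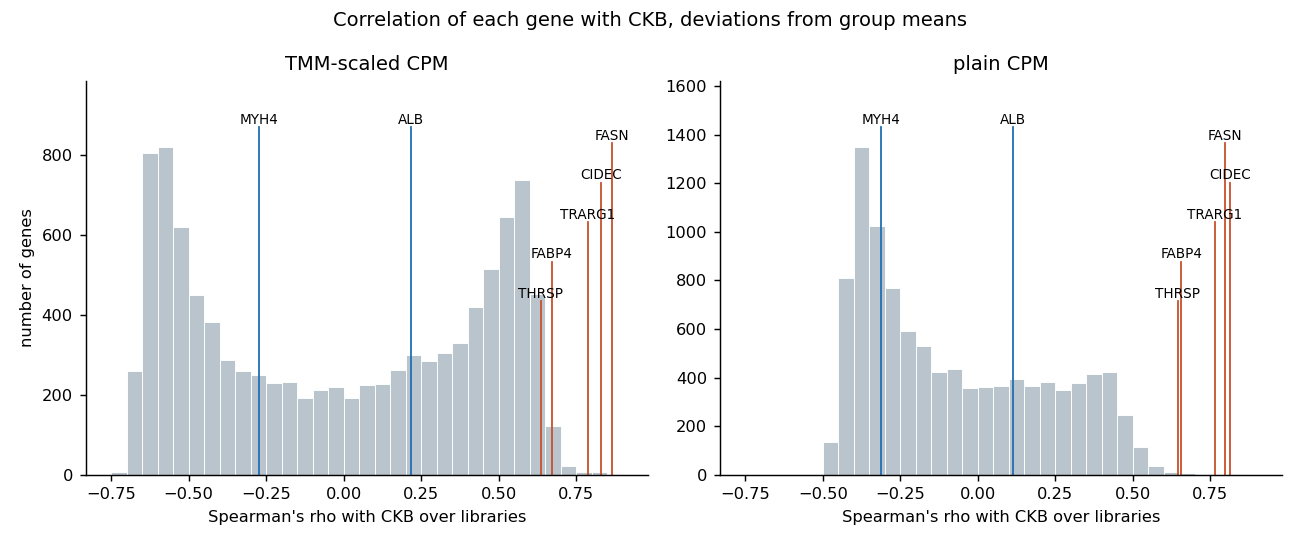
Number of genes (vertical axis) by Spearman's rho with CKB (horizontal axis) over 104 libraries, as deviations from group means, with TMM-scaled CPM on the left and plain CPM on the right. Orange lines mark FASN, CIDEC, TRARG1, FABP4 and THRSP, which lie at the right of both panels with rho from 0.64 to 0.87 on the left, and blue lines mark ALB and MYH4, which do not.

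Of 7 listed adipocyte markers, 4 could be matched by name, and all 4 had rho above 0.5 with CKB: CIDEC, TRARG1, FABP4 (0.67), which carries fatty acids inside fat cells, and THRSP (0.64), a regulator of fat synthesis. ADIPOQ, PLIN1 and LEP are not analysed here. The median rho of the 4 was 0.73, beside -0.02 over all 10290 genes compared, of which 1999 also had rho above 0.5. Without the marked libraries rho was 0.75 for CIDEC, 0.68 for TRARG1, 0.53 for FABP4 and 0.49 for THRSP. Their ranks among all genes were then 8, 50, 1639 and 2142, so the last 2 did not stand out. Their summed level ran from 0.287 to 329.8 CPM over the libraries, with a median of 14.4 CPM. Biopsies of muscle hold fat cells between the fibres, and in such bulk samples fewer cells of a type and less RNA per cell cannot be told apart.

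Over all 104 libraries the matched markers of other cell types had lower rho with CKB than the 4 adipocyte markers. The 4 hepatocyte markers found by name (ALB, AHSG, FGB and FGG) had rho from 0.22 to 0.23, and the 4 white blood cell markers (PTPRC, CD3E, LYZ and CSF3R) from -0.18 to 0.23. Slow-fibre MYH6, MYL6B and CSRP3 had rho of 0.36, 0.31 and 0.14, and fast-fibre MYH4 had -0.27. Among genes of developing or denervated fibres, CHRND, the delta subunit of the acetylcholine receptor, had 0.61, ACTC1, cardiac actin, had 0.47 and MYH8, the perinatal myosin, had -0.26. With plain CPM, CHRND had 0.48 and MYH6 had 0.14. Without the marked libraries CHRND had 0.59, above FABP4 (0.53) and THRSP (0.49). CKB had rho of -0.13 with gene counts per library and of 0.04 with the share of uniquely mapped reads.

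The relation with fat-cell transcripts was present within each breed and phase. The Spearman correlation between CKB and the summed 4 adipocyte markers, both as plain CPM and as deviations from the means of the RFI classes, was 0.70 in CH in H1 (n = 18), 0.80 in CH in ZG (n = 17) and 0.70 in CH in H2 (n = 14). In HF it was 0.68 in H1 (n = 20), 0.80 in ZG (n = 19) and 0.66 in H2 (n = 16). Pooled over the 104 libraries, Pearson's r on the log2 scale was 0.76, and 0.75 without the 2 libraries farthest from the median marker level. The slope was 0.53 ± 0.05 (SE) log2 units of CKB per log2 unit of the marker sum, so CKB varied less steeply than the markers. The within-group SD of CKB was 1.04 before and 0.67 after this line was taken out.

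The libraries with high CKB were high in these transcripts as well. All 13 libraries above 10 CPM exceeded their group's median in the adipocyte marker sum, in CIDEC and in FASN. In HF 5613 in H1, with 39.1 CPM of CKB, the marker sum was 329.8 CPM against a group median of 14.9 CPM, and FASN was 543 CPM against 56.8 CPM. In CH 1840 in H2 the marker sum was 118 CPM against 26.3 CPM, and FASN was 306 CPM against 57.0 CPM. In the 4 high L-RFI steers of HF in ZG the marker sum was 45.5 to 99.96 CPM (group median 9.85 CPM). The steer with the highest CKB was also the highest in the marker sum in 8 of the 12 groups and in FASN in 9 of 12.

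**Figure D3:**
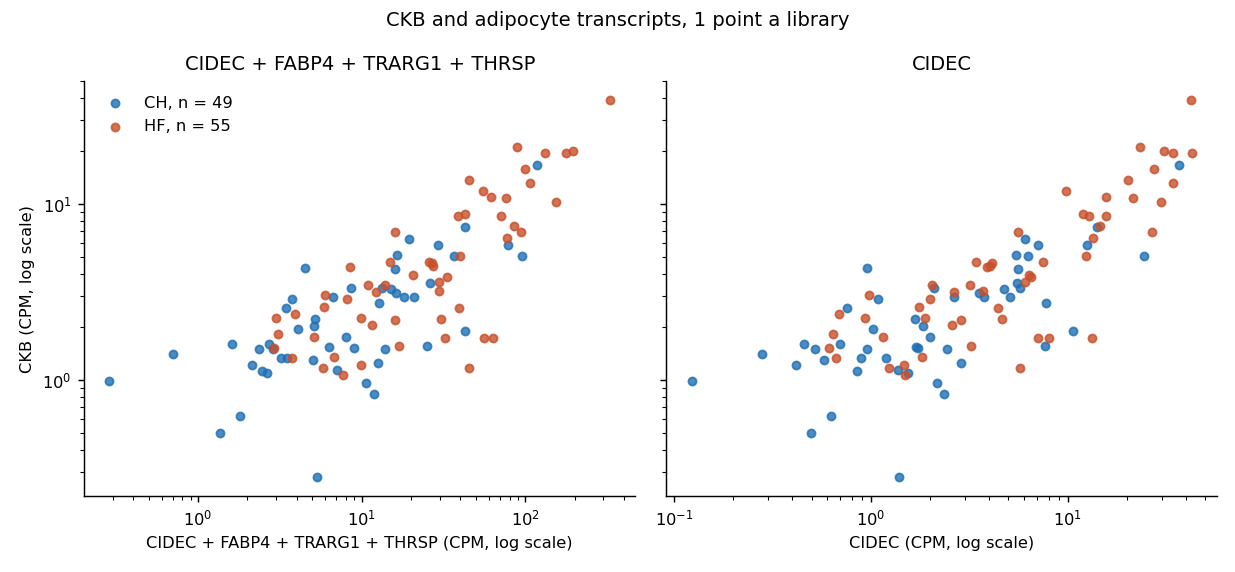
CKB in CPM (vertical axes, log scale) against the summed CPM of CIDEC, FABP4, TRARG1 and THRSP (left) and against CIDEC alone (right, both log scale), 1 point for each of 49 CH (blue) and 55 HF (orange) libraries. CKB rises with both over the whole range, and the highest library, at 39.1 CPM of CKB, lies at 329.8 CPM of the marker sum.

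The adipocyte markers were tested in the same contrasts. A gene was called at an adjusted p under 0.1 and a fold change above 1.5. In HF, all 4 were called higher in H2 than in H1 (2.33% of all genes were called higher), from 2.11 ± 0.53 for THRSP to 2.46 ± 0.50 for CIDEC on the log2 scale, with adjusted p of 0.00326 and 0.000285 (limma). All 4 were also called higher in H2 than in ZG in HF (0.807% of all genes), by 1.24 to 1.83. But edgeR without the steer as a block called 0 of the 4 there, with 0 at an unadjusted p under 0.05. It called 79 of 10291 genes higher. Limma without the block called 3 of the 4 (72 of 10291 genes were called higher). In H2 minus H1 edgeR called all 4 as well (306 of 10291 genes were called higher). In ZG minus H1 in HF limma called 0 of the 4 (0.369% of all genes were called higher). There 2 had an unadjusted p under 0.05, as had 951 of 10291 genes. In CH, 0 of the 4 was called in ZG minus H1 (1.02% of all genes were called higher), in H2 minus ZG (0.136%) and in H2 minus H1 (0.35%). The last of these had 2 with an unadjusted p under 0.05, as had 1470 of 10291 genes. edgeR without the block called 0 of the 4 in each of these 4 contrasts. Other listed markers were also called by limma in H2 minus ZG in HF, all lower in H2 (the fibre genes ACTC1 by -1.34 ± 0.42, CHRND by -1.16 ± 0.43 and MYL6B by -1.08 ± 0.42).

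HF minus CH gave 0 of 4 called in H1 (0.204% of all genes were called higher), 2 of 4 in ZG (FABP4 1.93 ± 0.57 and THRSP 2.07 ± 0.66, where 1.05% of all genes were called higher) and 1 of 4 in H2 (THRSP 2.51 ± 0.65, where 0.165% were). edgeR without the block called 0, 4 and 0 of the 4 (29, 248 and 24 of 10291 genes were called higher). Limma without the block called 0, 2 and 0 (21, 112 and 9 of 10291 genes were called higher). The 2 calls in ZG were lost with no filter on low counts, with all libraries put back and without the marked libraries (0 of 4 each). With no filter and with all libraries 4 of 4 had an unadjusted p under 0.05, and without the marked libraries 2 had. Of all genes, 2266 of 19405, 753 of 10222 and 1069 of 10313 were under 0.05 in these 3 settings. The call in H2 was lost with no filter, with RLE size factors and with all libraries put back. Without the marked libraries 2 of 4 were called (10 of 10313 genes were called higher). In ZG, limma also called ACTC1 (1.32 ± 0.42) and CSF3R, a white blood cell gene (1.96 ± 0.57), higher in HF. All 12 of these breed differences were above 0. Between RFI classes the edgeR quasi-likelihood test called 0 of the markers in any comparison. An unadjusted p under 0.05 was found for 4 of 4 in CH in H2, beside 89 of 10070 genes. In CH in ZG it was found for 2 of the 2 that passed the filter on low counts, beside 79 of 9823. In the other comparisons it was found for 0 of 4. DESeq2 and edgeR's exact test each called 1 of the 4, in CH in H2 (2 and 1 of 10070 genes), and 0 elsewhere. The study called all 4 lower in L-RFI steers of CH in ZG and H2 and of HF in H1. They have a name here for that reason, so these p-values and calls between RFI classes are not a separate result. CIDEC, L-RFI minus H-RFI, was -1.0 ± 0.54 in CH in H1, -2.29 ± 0.72 in CH in ZG, -2.14 ± 0.79 in CH in H2 and -1.09 ± 0.70 in HF in H1. In HF it was 0.37 ± 0.76 in ZG and 0.31 ± 0.61 in H2, so in each comparison its sign was that of the CKB value. In HF in ZG, where CKB was 0.94, TRARG1 had 0.12 ± 0.72 while FABP4 had -0.48 ± 0.66 and THRSP -0.09 ± 0.84, so these 2 markers had the opposite sign.

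When the log2 marker sum was put into the same fits as a covariate, a step added after the data were seen, the CKB differences between RFI classes in CH and between breeds became smaller. L-RFI minus H-RFI in CH went from -0.53 to 0.02 ± 0.40 in H1, from -0.66 to 0.15 ± 0.41 in ZG and from -1.71 to 0.03 ± 0.77 in H2. In HF it turned sign in H1, from -0.69 to 0.38 ± 0.37, went from 0.38 to 0.21 ± 0.58 in H2 and was 0.94 without and 0.96 ± 0.43 with the covariate in ZG. HF minus CH was then 0.08 ± 0.35 in H1, -0.27 ± 0.37 in ZG and 0.37 ± 0.39 in H2, and H2 minus H1 in HF was -0.13 ± 0.35. In CH the phase differences became larger with the covariate: H2 minus ZG went from -0.08 to -0.64 ± 0.40, H2 minus H1 from 0.06 to -0.43 ± 0.39 and ZG minus H1 from 0.14 to 0.22 ± 0.36. The mean log2 of the 4 markers as covariate gave values that differed from these by at most 0.10 in all 15 contrasts. The 4 markers have a name here because the study called them between RFI classes in these samples. All 4 were lower in L-RFI steers of CH in ZG and H2 and of HF in H1. The covariate was thus not chosen independently of the CH differences or of that in HF in H1. The moves of the CKB differences there are not a separate result. The part of fat-cell content in the CKB differences was not tested beyond these values.

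**Figure D4:**
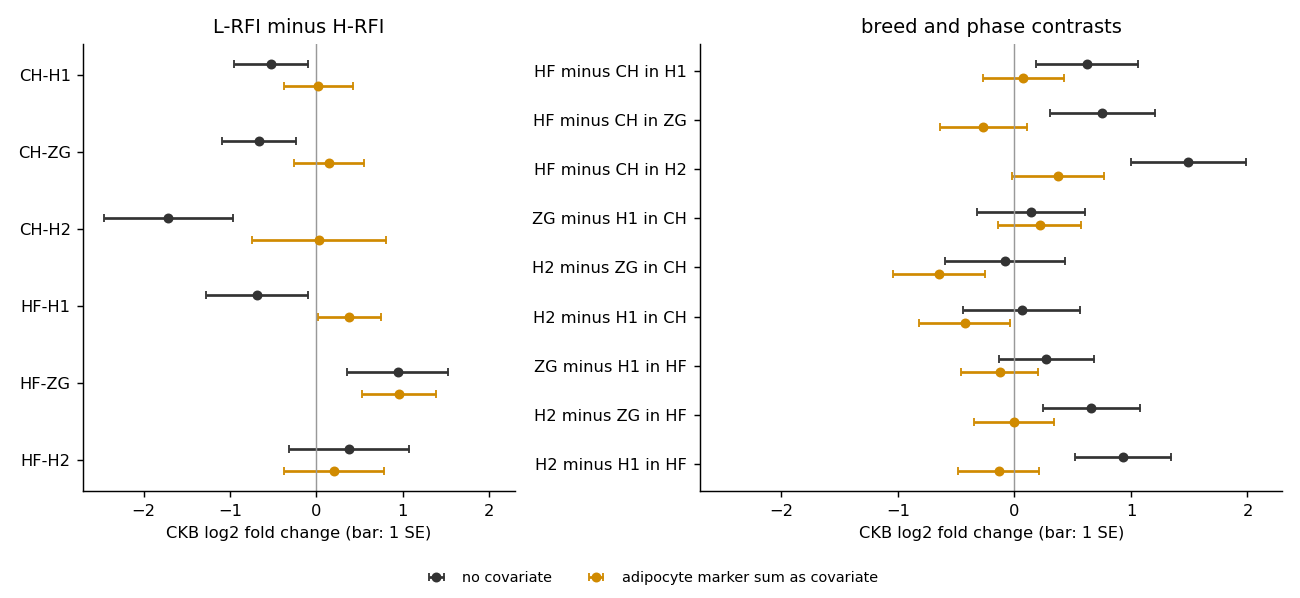
CKB log2 fold change (horizontal axes, bars of 1 SE) for L-RFI minus H-RFI in each breed and phase (left, edgeR) and for the breed and phase contrasts (right, limma), without a covariate (dark) and with the adipocyte marker sum as covariate (orange). The 3 CH values on the left move from between -1.71 and -0.53 to between 0.02 and 0.15, while HF-ZG is 0.94 and 0.96.

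Steers sampled in more than 1 phase allow the CKB level of a steer to be compared between phases, as a description. There were 25 such steers, 12 of CH and 13 of HF, and each was compared between its earliest and its latest library, as the deviation of log2(CPM + 0.5) from the mean of the breed and phase. In CH, Pearson's r between the libraries of a steer was 0.76 and Spearman's rho 0.70 (n = 12). Without the 2 steers farthest from the median r was 0.69. CH 1320 had 5.14 CPM in H1 and 5.87 CPM in H2, CH 307 had 5.85, 3.33 and 4.27 CPM in H1, ZG and H2, and CH 322 had 0.625 CPM in H1 and 0.835 CPM in H2.

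The value in CH depended on the processing. With TMM-scaled library sizes r was 0.49, and with deviations from the mean of breed, phase and RFI class r was 0.33. Of the 12 CH steers, 8 were in the same RFI class in both libraries. The median absolute change between a steer's libraries in CH was 0.38 on the log2 scale, and 1 of 12 steers changed by more than 1.

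In HF, Pearson's r was -0.42 and Spearman's rho -0.27 (n = 13), and r was 0.23 without the 2 steers farthest from the median. The median absolute change was 1.40 on the log2 scale, and 10 of 13 steers changed by more than 1. HF 5613 had 39.1 CPM in H1 and 1.17 CPM in ZG. HF 2095 had 3.21 CPM in H1 and 19.5 CPM in H2, and HF 2065 had 2.89 CPM in H1 and 15.8 CPM in ZG. Of the 11 HF steers first sampled in H1, 8 had more CKB later. Over all 25 steers r was -0.08 and rho 0.06. Whether repeatability differs between the breeds was not tested.

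**Figure D5:**
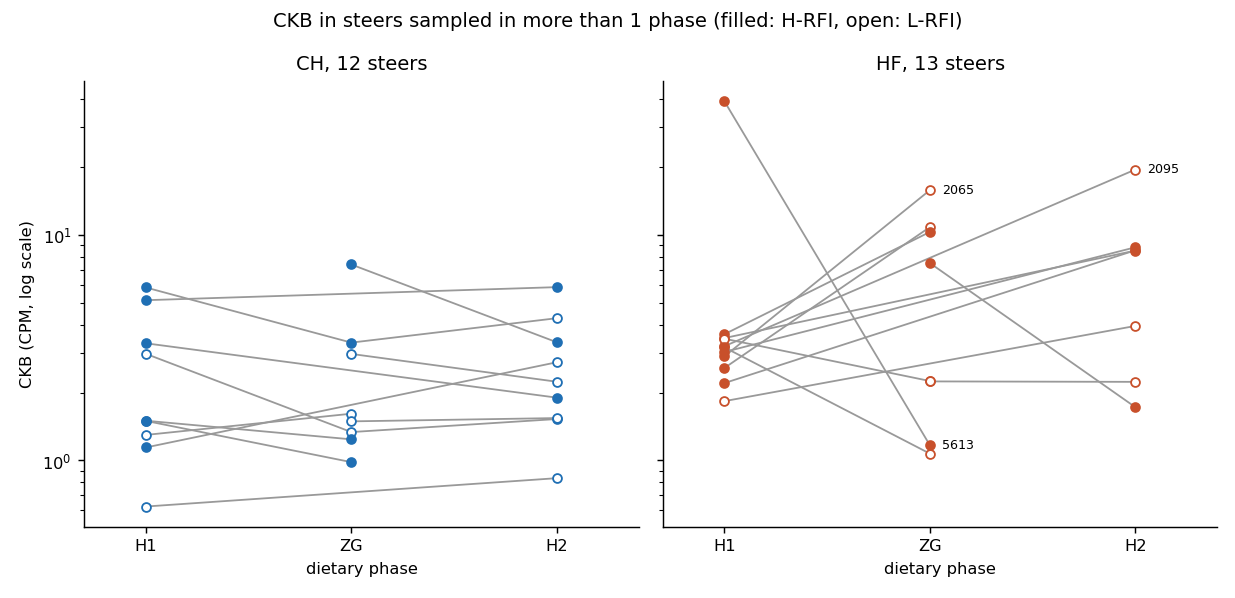
CKB in CPM (vertical axis, log scale) by dietary phase (horizontal axis) for the 12 CH (left) and 13 HF (right) steers sampled in more than 1 phase, with lines joining the libraries of a steer, filled points for H-RFI and open points for L-RFI. Most CH lines are flat, with a median absolute change of 0.38 on the log2 scale, and most HF lines are steep, with a median of 1.40.

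Within a steer, CKB and the fat-cell transcripts mostly changed in the same direction. Over the 25 steers, the log2 change of CKB between the earliest and the latest library had r of 0.90 with that of CIDEC (0.75 in CH and 0.95 in HF) and of 0.80 with that of the adipocyte marker sum (0.44 in CH and 0.90 in HF), given as a description. Spearman's rho was 0.88 with CIDEC (0.80 in CH and 0.80 in HF) and 0.70 with the marker sum (0.53 in CH and 0.64 in HF). CKB and the marker sum changed in the same direction in 8 of 12 CH and 12 of 13 HF steers. In HF 5613, as CKB went from 39.1 to 1.17 CPM, the marker sum went from 329.8 to 5.78 CPM. In HF 2095, as CKB went from 3.21 to 19.5 CPM, the marker sum went from 29.7 to 131 CPM. HF 1639 was unlike these, with CKB of 7.51 CPM in ZG and 1.72 CPM in H2 while the marker sum was 85.8 and 63.8 CPM.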

How the data were processed

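Per the labels and the methods of the study, mRNA from muscle biopsies was sequenced as 50 bp single-end reads from stranded libraries. The authors trimmed the reads and aligned them with STAR (2.5.1), whose GeneCounts mode gave the deposited values, raw read counts per gene for 24616 genes with Ensembl identifiers. The labels name the build UMD3.1 and the methods ARS-UCD1.2, so no coordinates are given. No identifiers or sequences beyond the deposited ones were used, and gene names come from the list of the study (151 in the tables). The reverse-strand counts were used (97.6 to 99.5% of stranded counts per library).

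Libraries with under 1000000 gene counts, and 1 more, were left out. The gene, the lists and the comparisons were chosen with earlier results of these data known. RFI classes were compared within each breed and phase with edgeR 4.0.16 (quasi-likelihood test, TMM, a minimum of 1 CPM in 50% of the libraries), as counts per library of separate steers. Breeds and phases were compared in 1 limma voom fit with the steer as a block, since a number in the labels is the same animal (consensus correlation 0.0966). Calls needed an adjusted p under 0.1 and a fold change above 1.5. The fits and the correlation measures were run on simulated data. The simulated libraries were independent, with the same dispersion for every gene in the fits, so the steer block was not tested. A level from few reads is imprecise: intervals are 95% Wilson intervals. The text names CKB, all matched members of the lists, and among the 10 most and 3 least like genes those with a name and at most 2 identifiers at each end. The alternatives were DESeq2, edgeR's exact test, other scalings, filters and strands, and steers left out.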

Additional observations from a re-analysis of the deposited data

Results flagged for a closer look

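Among the groups of 4 to 10 libraries, the highest CKB level stood apart from the others by Dixon's criterion at 95% in 2 of 11 groups. Chance gives about 1 group in 20 with a highest or a lowest level apart where values are normally distributed, which was not checked for these CPM. The gene was chosen with these levels known, so this is a description. These were CH steer 1840 in H2 (H-RFI), with 16.7 CPM, whose gap to the next library was 71.5% of the range of its group, and HF steer 5609 in H2 (H-RFI), with 19.6 CPM, whose gap was 58.6% of the range. Both were also the highest of their group in CIDEC, FASN and the adipocyte marker sum.

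The left-out H-RFI library of CH steer 571 in ZG had 522 CKB reads among 13818659 gene counts, or 37.8 CPM (95% Wilson interval 34.7 to 41.2 CPM), above the 7.39 CPM of the highest library of its group that was used. It had 101449 CPM of ALB, against at most 8576 CPM in the libraries used. Its CIDEC level was 2.17 CPM, its FASN level 66.1 CPM and its adipocyte marker sum 74.5 CPM. In the libraries of its group that were used, the medians were 4.29, 45.8 and 13.0 CPM, so CIDEC was below and FASN and the marker sum above theirs. The library was left out by rule, and the source of its transcripts was not tested. In the 6 shallow libraries, 5 had 0 CKB reads, where an upper limit of 3 counts corresponds to 20.5 to 746 CPM, and 1 had 2 reads.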

How the results depend on the processing

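Each CKB difference was recomputed under other tests, scalings, filters, strands and sets of libraries. Of 140 values (without those that leave out 1 steer), 129 moved by less than the SD between libraries. On the log2 scale that SD was 0.73 to 1.25 within a breed and phase, and 1.04 over all groups. It was larger than most of the CKB differences, so this count does not show that they are stable. A sign could turn within the SD. In HF in H1 (SD 1.13) the difference went from -0.69 to 0.40 without the marked libraries and was counted among the 129. With the left-out libraries put back, L-RFI minus H-RFI in CH in ZG was -1.57, since the library of steer 571 returned. With the adipocyte marker sum, or their mean log2, as covariate it was 0.15 or 0.25 in CH in ZG and 0.029 or 0.057 in CH in H2, HF minus CH in H2 was 0.37 or 0.31, and H2 minus H1 in HF was -0.13 or -0.22. Without the libraries marked as high, L-RFI minus H-RFI was -0.26 in CH in ZG, -0.60 in CH in H2, 0.40 in HF in H1 (-0.69 with them), -1.16 in HF in ZG and 0.87 in HF in H2, and HF minus CH was 0.24 in H1 and 0.25 in ZG. These covariates, the removal of marked libraries and plain CPM for the likeness were chosen after seeing the data. The marked libraries were picked by CKB itself. Leaving out 1 steer at a time gave -0.67 to -0.29 in CH in H1, -0.87 to -0.26 in CH in ZG, -2.19 to -0.60 in CH in H2, -0.95 to -0.05 in HF in H1, 0.64 to 1.16 in HF in ZG and 0.16 to 0.87 in HF in H2, and 0 genes were called each time.

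The counts of called genes that stand as background moved more. For L-RFI against H-RFI, edgeR's exact test called 2 genes in CH in H1 and 1 in CH in H2, and DESeq2 called 2, 2 and 1 in CH in H1, CH in H2 and HF in ZG. No paired analysis was possible because no steer is in both RFI classes of a phase. Without the steer as a replicate block, HF minus CH in H2 called 10 genes, and no other count moved by more than 1.5 times with limma. edgeR with no replicate block called 298 in HF minus CH in ZG, 151 in H2 minus H1 in CH and 979 in H2 minus H1 in HF. No filter gave 67 in HF minus CH in ZG, 12 in HF minus CH in H2, 163 in ZG minus H1 in CH and 393 in H2 minus H1 in CH. With all libraries put back, HF minus CH called 6, 4 and 1 genes in H1, ZG and H2, the CH phase contrasts 40, 38 and 37, and the HF phase contrasts 8, 227 and 846. With the marker sum as covariate HF minus CH called 9, 3 and 6 genes in H1, ZG and H2, and with the mean log2 9, 8 and 6. Without the marked libraries it called 14, 0 and 11, ZG minus H1 called 145 in CH and 25 in HF, H2 minus H1 in CH called 160 and H2 minus ZG in HF called 405. In HF minus CH in ZG the limma count of 0 without the marked libraries stands beside 1069 genes with an unadjusted p under 0.05. The cause of these moves was not tested.

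The correlation between libraries of a steer in CH was lower with TMM-scaled library sizes (r = 0.49, rho = 0.43) and with centring on the RFI class (r = 0.33, rho = 0.27), and rho over all steers was then -0.06 and -0.11. With pseudocounts of 1 and 0.1 CPM, unstranded counts and all libraries put back r in CH was 0.75 to 0.77. The first 10 like genes shared 10, 8, 8 and 9 members with those by Pearson's r, without centring, without the marked libraries and with plain CPM. The median of CH L-RFI in ZG was 2.23 CPM with TMM scaling, and the other 11 group medians moved by less than their SD. Depth limits single levels, which rest on as few as 4 reads.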
